A study of Mus musculus with 20 samples.

Results

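GRP2/MP3 progenitors were compared here with neural stem cells (NSCs) in each of 4 batches, with batch 3 set apart from batches 1, 2 and 4. The 8 libraries of the comparison are 4 of GRP2/MP3 and 4 of NSC, chosen by population and batch label out of the 20 libraries of 5 populations in the table. Of the 45705 genes listed, 16123 reached 1 RPKM (reads scaled to library size and gene length, and so a level per length) in at least 4 of these 8 libraries and were tested.

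The cells came from the periventricular tissue of Swiss Webster mouse pups at postnatal day 5, whose brains were pooled by litter without regard to sex. They were sorted live by antibodies to 4 surface antigens: CD133 (encoded by Prom1), LeX (a carbohydrate, also called CD15), CD140a (Pdgfra) and NG2 (Cspg4). NSCs carried CD133 and LeX and lacked CD140a and NG2. GRP2/MP3 cells carried NG2 alone, a profile shared by a glial-restricted progenitor (GRP2) and a multipotential progenitor (MP3) that these antigens do not separate, and that pericytes, which also bear NG2, can share. The labels give no treatment and no genetic change for either population. The RNA was amplified from its polyA tails before sequencing. Each library goes by its population and its batch number, as in NSC 3.

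The lining of the lateral ventricle holds astrocyte-like stem cells with a primary cilium and ependymal cells with many motile cilia, and both can carry CD133. A motile cilium is built on doublet microtubules with dynein arms, radial spokes and a central pair, and its genes are switched on by a cascade that includes Foxj1, Myb and the RFX factors. Microglia, the resident macrophages of the brain, depend on the receptor Csf1r and the factor Spi1 (PU.1), while pericytes wrap the capillaries. In bulk RNA, fewer cells of a type and less RNA per cell cannot be told apart.

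Promoter letters of the genes with the largest differences are shown first, since the factors that read them belong to the ciliary and myeloid programmes described below. The stretches are RefSeq promoters of GRCm38.p6, written along the gene's strand, and the capitals mark the letters searched. The letters GTTGCC, the core of the site that RFX factors bind, is shown before the starts of the 4 most strongly downregulated of the named genes that hold it there.
Ccdc153, chr9:44240505-44240550, plus strand: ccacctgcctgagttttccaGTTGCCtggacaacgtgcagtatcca
Fam183b, chr11:58802002-58802047, minus strand: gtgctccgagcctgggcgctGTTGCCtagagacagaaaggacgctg
Dynlrb2, chr8:116504944-116504989, plus strand: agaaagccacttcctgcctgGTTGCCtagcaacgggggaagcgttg
1700012B09Rik, chr9:14771083-14771128, minus strand: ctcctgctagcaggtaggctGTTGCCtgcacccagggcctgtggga
The longer X-box was searched as the facing arms GTTNCC and GGNAAC with 2 bases between them, where N is any base. It was matched in the promoter of Ccdc151, whose protein docks outer dynein arms and whose promoter lacks GTTGCC.
Ccdc151, chr9:22002635-22002688, minus strand: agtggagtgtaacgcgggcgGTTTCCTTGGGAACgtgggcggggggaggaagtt
The letters GAGGAAGT, a site of PU.1, or their reverse complement ACTTCCTC, stood before the starts of 3 of the upregulated genes named here and at or after that of Ctss. The promoters of the downregulated Ccdc153 and Ccdc151 hold these letters too.
Pf4, chr5:90772405-90772434, plus strand: tgtcattgcttctgcagagcACTTCCTCat
C1qc, chr4:136893082-136893129, minus strand: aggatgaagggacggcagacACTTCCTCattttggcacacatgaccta
Vav1, chr17:57279069-57279099, plus strand: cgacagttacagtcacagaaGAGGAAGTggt

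Counted over both strands of the 300 bases from 250 before to 50 after each start, GTTGCC occurred in 102 of the 275 downregulated genes that had a promoter (37.1%). It occurred in 7 of 61 upregulated genes with a promoter (11.5%) and in 19 of the 36 downregulated ciliary genes with a promoter (52.8%), against 13.4% of the 10325 tested genes and 12.7% of all 27025 promoters. The X-box, which can contain GTTGCC, was in 6 of the 275 (2.18%) and in 0.444% of all promoters. GTAAACA, letters of forkhead factors such as FOXJ1, stood in 17 of the 275 (6.18%) and in 3.55% of all. The PU.1 letters were found in 7 of 61 upregulated genes with a promoter (11.5%), in 6 of the 275 downregulated ones (2.18%), in 3.28% of all promoters and in none of the 9 promoters of the homeostatic microglia list. These are matches of letters, described with no test, and binding was not measured.

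Over batches 1, 2 and 4, 100 genes were upregulated and 404 downregulated in GRP2/MP3 against the NSC library of the same batch (0.620% and 2.51% of the genes tested). A gene is called here at an adjusted p under 0.05 by limma's moderated test on log2(RPKM + 1) with batch as a block, and differences are on that scale unless a ratio is named. Over all 4 batches, 5 genes were upregulated (0.0310%) and 403 downregulated (2.50%). The downregulated sets shared 336 genes, 83.2% of the former and 83.4% of the latter, and the upregulated sets shared 4. Without the batch block, 63 and 365 genes were called over batches 1, 2 and 4, and 4 and 183 over all 4. Leaving out batch 1, 2 or 4 from the latter left 73, 85 and 108 downregulated genes. The test without batch 3 had 2 residual degrees of freedom, and it leaned on a prior worth 9 more. With genes under a mean of 5 RPKM left out, that prior was worth 3.1, and 0 genes passed in either direction (lowest adjusted p = 0.0891, with 467 higher and 1068 lower at an unadjusted p under 0.05). Leaving out batch 4 also left 0 and 0, so the calls below go with the per-library values printed beside them.

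**Figure D1:**
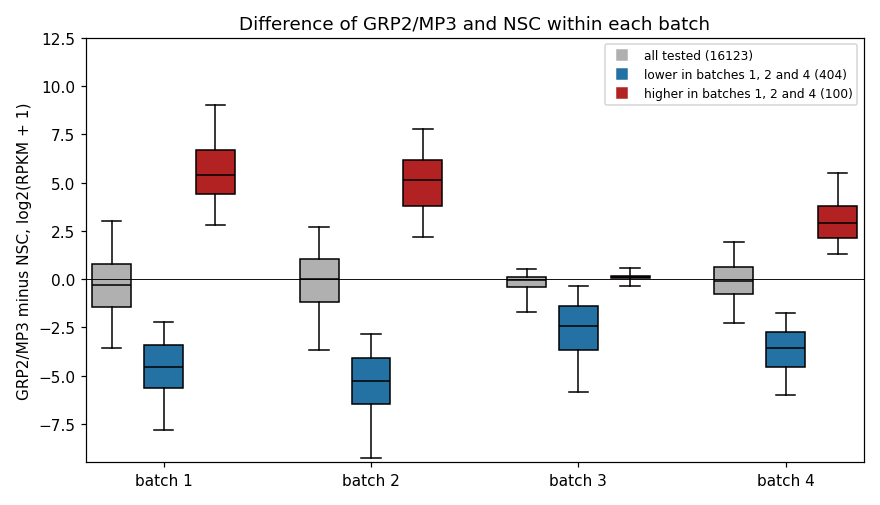
Difference of GRP2/MP3 minus NSC on the log2(RPKM + 1) scale within each batch, for all 16123 genes tested (grey), the 404 lower genes (blue) and the 100 higher genes (red) of batches 1, 2 and 4. Boxes span the quartiles with the median as a line, and whiskers run from the 5th to the 95th percentile. The median of the higher genes was 5.39, 5.11 and 2.91 in batches 1, 2 and 4 and 0.12 in batch 3, while that of the lower genes was below 0 in every batch.

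The downregulated genes were led by genes of motile cilia. Of the 90 tested genes in 5 lists of ciliary genes, 53 were downregulated and none upregulated over batches 1, 2 and 4, with a median difference of -3.68 against -0.08 over all genes tested. The count over 4 batches was also 53. GRP2/MP3 4 held more of this RNA than GRP2/MP3 1 and 2, and still far less than NSC 4.

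Among the regulators of ciliogenesis, 7 of 10 tested genes were downregulated over batches 1, 2 and 4. Foxj1, the forkhead factor of motile ciliogenesis (ENSMUSG00000034227, chr11:116330704-116335399 of GRCm38), stood at 141, 352 and 33.1 RPKM in NSC 1, 2 and 4 and at 0.0533, 0.298 and 2.19 in GRP2/MP3 1, 2 and 4. The populations did not overlap, and the difference was -6.20 (SE 0.96, adjusted p = 0.00723). Myb, which acts early in multiciliated cells, measured 127, 47.9 and 30.5 RPKM in NSC against 1.25, 2.35 and 1.75 in GRP2/MP3 (-4.41, adjusted p = 0.0144). Ccno, a cyclin-like protein needed to multiply centrioles, stood at 125, 63.5 and 10.9 RPKM in NSC and at 1.15, 0.0871 and 0.469 in GRP2/MP3 (-4.93, adjusted p = 0.0108). Mcidas, an activator of the same step, was low in both, at 11.7, 5.62 and 5.19 RPKM against 0.18, 0.0224 and 0.471 (-2.73, adjusted p = 0.0308). All NSC libraries were therefore above all GRP2/MP3 libraries for these 4 genes. They are named from the genes called, so this separation follows in part from the choice. The share of all genes tested without overlap was not computed. Of the RFX factors, Rfx2 was downregulated (-2.51, adjusted p = 0.0349), and Rfx3 differed by -2.32 without passing (adjusted p = 0.168).

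Of the 24 tested genes for dynein arms and their assembly, 17 were downregulated. Dynlrb2, a dynein light chain of the roadblock family, stood at 370, 3292 and 1741 RPKM in NSC 1, 2 and 4 and at 0.771, 0.192 and 29.8 in GRP2/MP3, a difference of -8.32 (SE 1.06, adjusted p = 0.00456). Its paralogue Dynlrb1, which serves cytoplasmic dynein in most cells, measured 502, 531 and 536 RPKM in NSC and 424, 200 and 1080 in GRP2/MP3. That difference was -0.21 with an SE of 0.93 (adjusted p = 0.975), and the populations overlapped. Dnali1, a light chain of the inner arm, went from 169, 343 and 49.3 RPKM to 0.0671, 0.15 and 3.69 (-6.32, adjusted p = 0.00723). Zmynd10, a factor that assembles dynein arms in the cytoplasm, went from 90.8, 325 and 62 RPKM to 0.115, 0.115 and 2.18 (-6.29, adjusted p = 0.00517). Ccdc151, whose X-box is printed above, was lower by a smaller margin in batch 4, at 23 RPKM in NSC 4 and 7.09 in GRP2/MP3 4 (-3.91, adjusted p = 0.0432).

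Radial spokes and the central pair gave 9 downregulated genes of 12 tested, and tektins and other doublet proteins 17 of 20. Rsph1, a protein of the spoke head (ENSMUSG00000024033, chr17:31255019-31277383), stood at 682, 1647 and 483 RPKM in NSC and at 3.56, 0.413 and 1.42 in GRP2/MP3 (-8.35, SE 0.87, adjusted p = 0.00444). Rsph9, of the same head, kept a few RPKM in GRP2/MP3, at 4.94, 4.9 and 10.5 against 485, 1170 and 283 (-6.21, adjusted p = 0.00507). Neither spoke-head gene overlapped between the populations, though both were named from the genes called. In the doublet group, Ccdc113 went from 352, 625 and 421 RPKM to 2.26, 0.0925 and 0.971 (-7.89, adjusted p = 0.00444). Enkur, a protein of the doublet lumen, went from 223, 743 and 1044 RPKM to 0.854, 0.638 and 21 (-7.11, adjusted p = 0.00456). Tekt1 and Tekt4, filament proteins of the doublets, differed by -6.30 and -6.15 (adjusted p = 0.00507 and 0.00456).

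Intraflagellar transport and the BBSome, which primary cilia use as well, had 3 of 24 tested genes downregulated over batches 1, 2 and 4 and 5 over 4 batches. The list's median difference was -2.80, with all 24 below 0, and its distance from the other ciliary lists was not tested. Ift81 and Ift172, particles of the transport train, differed by -3.98 and -3.50 (adjusted p = 0.0424 and 0.033). Ift52, another particle, stood at 42, 27.2 and 6.23 RPKM in NSC and at 7.17, 11.3 and 5.59 in GRP2/MP3 (-1.24, SE 0.80, adjusted p = 0.577). Its libraries overlapped, while those of Ift81 did not, at 336, 113 and 265 RPKM in NSC and 3.73, 17.9 and 27.9 in GRP2/MP3. Ift52 was chosen after its values were seen, so its overlap cannot be set against genes named as called.

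**Figure D2:**
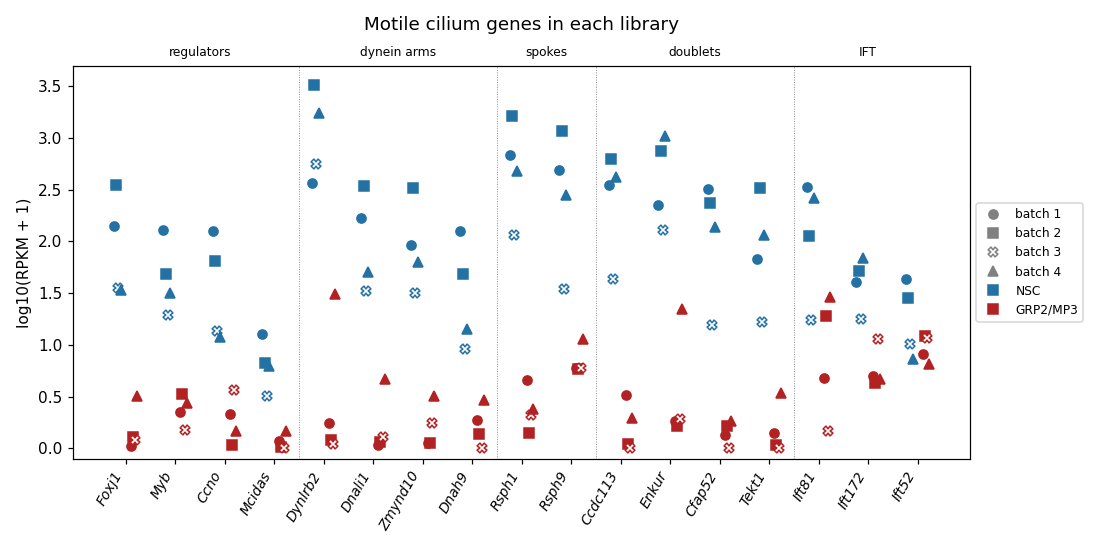
RPKM of 17 motile cilium and transport genes in each of the 8 libraries, as log10(RPKM + 1), NSC in blue and GRP2/MP3 in red, with a marker for each batch and batch 3 as open crosses. NSC points lie above GRP2/MP3 points for Foxj1, Dynlrb2, Rsph1 and Enkur in all 4 batches, while those of Ift52 overlap.

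Genes that mark ependymal cells and stand outside the 5 ciliary lists moved with the cilium, with 6 of 9 tested downregulated. Ccdc153 is among the 6, and whether each of the 9 serves outside the axoneme was not tested. Mia, a secreted protein (chr7:27179742-27181157), stood at 179, 581 and 412 RPKM in NSC and at 0.707, 0.568 and 17.8 in GRP2/MP3 (-6.57, adjusted p = 0.00507). Rarres2, the chemerin precursor, stood at 300, 1534 and 2365 RPKM against 17.8, 4.06 and 436 (-4.89, adjusted p = 0.0413). The level in GRP2/MP3 4 exceeded that in NSC 1, although each batch had the same direction. S100b, shared with astrocytes, was higher in GRP2/MP3 4 than in NSC 4, at 48 and 34.4 RPKM, and was not called (-2.81, adjusted p = 0.21). Ependymal markers thus moved with the ciliary genes, and their summed level was 2659, 10444 and 5448 RPKM in NSC 1, 2 and 4 and 57, 105 and 740 in GRP2/MP3. The NSC sums include 676, 4201 and 357 RPKM of Ccdc153. The part of ependymal cells in the ciliary difference was not tested.

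Of 25 stem cell and astroglial genes, 23 lay below 0 over batches 1, 2 and 4. Their median difference was -1.75, against -0.08 over all genes tested. Of the 25, 4 were downregulated over these batches, all of them regulators of transcription. Over all 4 batches the receptor gene Ntrk2 was also called (-3.43, adjusted p = 0.0452) and Hopx was not (adjusted p = 0.0769). Id4, an inhibitor of basic helix-loop-helix factors, stood at 520, 290 and 193 RPKM in NSC and at 2.64, 39.8 and 23.7 in GRP2/MP3 (-4.32, adjusted p = 0.0429). Emx1, a homeobox factor of the dorsal forebrain, stood at 31, 68.7 and 21.6 against 0.21, 1.75 and 1.89 (-4.12, adjusted p = 0.0166). Hopx, an atypical homeodomain protein, and Sox9, a factor of glial fate, differed by -3.86 and -3.30 (adjusted p = 0.0399 and 0.0499). Without the batch block Id4, Hopx and Sox9 were not called (adjusted p = 0.0609, 0.0697 and 0.11). The glial transporter gene Slc1a3 was lower in GRP2/MP3 in each of these batches but was not called. It stood at 90, 107 and 578 RPKM in NSC and 13.9, 35.4 and 170 in GRP2/MP3 (-1.98, SE 0.81, adjusted p = 0.267). Fabp7, the brain lipid-binding protein of radial glia, was at 3508, 4555 and 3469 RPKM against 301, 1918 and 5466 and was not called (-1.38, SE 1.12, adjusted p = 0.706). The summed level of the list was 595, 2665 and 8088 RPKM in GRP2/MP3 1, 2 and 4 and 5468, 6154 and 7484 in NSC, with Fabp7 the main part of the GRP2/MP3 sums.

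Of the antigen genes of the sort, 4 were tested and none was called. Prom1 and Cspg4 followed the gates in direction over batches 1, 2 and 4, though not in every batch. Prom1 stood at 84.2, 46.1 and 9.56 RPKM in NSC 1, 2 and 4 and at 5.75, 14.1 and 11.2 in GRP2/MP3, and in batch 4 it was higher in GRP2/MP3 (-1.70, SE 0.89, adjusted p = 0.446). Cspg4 stood at 5.91, 9.64 and 7.89 RPKM in GRP2/MP3 and at 0.405, 0.438 and 1.12 in NSC (2.42, SE 0.63, adjusted p = 0.0664). Pdgfra, whose product neither gate admitted, differed by 0.70 (SE 0.73, adjusted p = 0.806). The libraries of Cspg4 did not overlap in batches 1, 2 and 4, while in batch 3 its level was 0.0431 RPKM in GRP2/MP3 and 0.197 in NSC.

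The 100 upregulated genes of batches 1, 2 and 4 were led by genes of microglia and macrophages. Of 13 tested genes of homeostatic microglia, 8 were upregulated and none downregulated, with a median difference of 4.10. Over 4 batches none of the 13 passed, with batch 3 near 0 as given below. Gpr34, a lysophospholipid receptor of microglia (ENSMUSG00000040229, chrX:13632089-13640858), stood at 56.6, 94.4 and 78.4 RPKM in GRP2/MP3 1, 2 and 4 and at 0.411, 0.638 and 1.35 in NSC. Its difference was 5.43 (SE 0.75, adjusted p = 0.00507), with similar levels in the 3 GRP2/MP3 libraries. Fcrls, an Fc receptor-like protein of microglia, stood at 222, 416 and 19.3 RPKM against 1.2, 1.11 and 1.3 (5.81, adjusted p = 0.00914). P2ry12, the ADP receptor of resting microglia, stood at 90.1, 1101 and 60.7 RPKM against 3.66, 0.82 and 9.2 (5.38, adjusted p = 0.0306). Cx3cr1, the fractalkine receptor, stood at 101, 121 and 19.8 RPKM against 0.573, 0.459 and 2.27 (5.03, adjusted p = 0.0132). In batches 1, 2 and 4 no library of one population reached into the other for these 4 genes. Since they are named from the genes called, this separation follows in part from the choice. Here too, the share of all genes tested without overlap was not computed. Tmem119, a further microglial marker, was at 1.92 RPKM in GRP2/MP3 4 and 1.41 in NSC 4 and was not called (3.54, SE 1.02, adjusted p = 0.0967).

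Receptors that signal through immunoreceptor motifs gave 5 upregulated genes of 18. Tyrobp, the adaptor of TREM2 and other myeloid receptors (ENSMUSG00000030579, chr7:30413760-30417585), stood at 6797, 881 and 64.7 RPKM in GRP2/MP3 and at 9.17, 7.51 and 6.24 in NSC (6.42, SE 1.11, adjusted p = 0.0109). Fcer1g, the common gamma chain of Fc receptors, stood at 6018, 738 and 303 RPKM against 10.5, 6.9 and 75.2 (5.86, adjusted p = 0.0254). Fcgr3, a low-affinity IgG receptor, differed by 5.89 (adjusted p = 0.0058), and Vav1, an exchange factor downstream of such receptors, by 4.21 (adjusted p = 0.0264). Levels in GRP2/MP3 varied widely among libraries for Tyrobp, whose SD of 3674 RPKM exceeded its mean of 2581 (n = 3). Syk, the kinase of this pathway, stood at 7.17, 7.07 and 1.21 RPKM against 0.387, 0.355 and 2.03, reversed in batch 4 (1.56, adjusted p = 0.328). Plcg2, a phospholipase downstream of SYK, differed by 1.82 (SE 0.50, adjusted p = 0.0826).

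Of 13 myeloid transcription factors tested, 0 passed over batches 1, 2 and 4, at a median difference of 2.60 over these batches and 0.41 in batch 4. Spi1 stood at 50.4, 14.2 and 8.18 RPKM in GRP2/MP3 and at 0.338, 0.267 and 2.98 in NSC (3.35, SE 0.87, adjusted p = 0.0685). Irf8, its partner in myeloid cells, was nearly equal in batch 4, at 6.08 and 5.86 RPKM (2.60, SE 0.93, adjusted p = 0.186). Lyl1, a helix-loop-helix factor of blood cells, and Mef2c, an activity-dependent factor also found in microglia, both had an adjusted p of 0.0512, at differences of 2.81 and 3.38. The levels of Spi1 did not overlap in these batches, while those of Irf8 nearly met in batch 4.

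Complement gave 4 upregulated genes of 6 tested. C1qa, C1qb and C1qc, neighbours on chromosome 4 that encode the chains of C1q, moved together. C1qc (ENSMUSG00000036896, chr4:136889804-136893065) stood at 1953, 1257 and 90.7 RPKM in GRP2/MP3 and at 6.94, 7.34 and 6.46 in NSC (6.27, SE 0.98, adjusted p = 0.00723). C1qb and C1qa differed by 6.17 and 6.05 (adjusted p = 0.00988 and 0.0119). C3ar1, the receptor of C3a, differed by 4.31 (adjusted p = 0.0345).

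Of the 12 lysosomal genes, 3 were upregulated: Ctss (5.84, adjusted p = 0.0424), Cd68 (5.96, adjusted p = 0.00876) and Grn (4.20, adjusted p = 0.0313). Cd68, a membrane protein of macrophage lysosomes, stood at 832, 397 and 164 RPKM against 2.97, 2.43 and 15.6. Ctsd, an aspartic protease of lysosomes in most cells, was at 74 RPKM in GRP2/MP3 4 and 76.9 in NSC 4 and was not called (3.27, adjusted p = 0.154).

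Chemokines and targets of NF-kB gave 5 upregulated genes of 13. Ccl12, a monocyte chemokine (ENSMUSG00000035352, chr11:82101845-82103400), stood at 166, 124 and 156 RPKM in GRP2/MP3 and at 1.24, 0.107 and 2.96 in NSC. Its mean was 149 ± 22.2 RPKM (SD, n = 3) in GRP2/MP3 and 1.44 ± 1.44 in NSC, and the difference was 6.12 (SE 0.78, adjusted p = 0.00456). Ccl2 and Ccl7, which lie beside Ccl12 on chromosome 11, differed by 5.63 and 4.81 (adjusted p = 0.0167 and 0.0264). NSC 4 held 107 RPKM of Ccl2 and 52.1 of Ccl7, while NSC 1 and 2 held at most 1.85. Ccl3, another chemokine, differed by 5.99 (adjusted p = 0.0094) and Cxcl2, which attracts neutrophils, by 4.69 (adjusted p = 0.0345). Tnf stood at 35.8, 426 and 7.14 RPKM against 2.58, 0.0653 and 1.66 and missed the threshold (4.54, SE 1.17, adjusted p = 0.0656). Il1b was at 1.53 RPKM in GRP2/MP3 4 and 1.8 in NSC 4 (2.00, adjusted p = 0.405).

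Genes of macrophages at the brain's borders gave 3 upregulated of 7 tested. Pf4, a chemokine of platelets and border macrophages, stood at 2365, 73.8 and 110 RPKM in GRP2/MP3 and at 0, 1.03 and 16.4 in NSC (6.36, SE 1.33, adjusted p = 0.0271). Mrc1, the mannose receptor, differed by 3.85 (adjusted p = 0.0464) and Cbr2 by 3.32 (adjusted p = 0.0465). Without the batch block none of the 3 was called (adjusted p = 0.0556, 0.0547 and 0.0643 for Pf4, Mrc1 and Cbr2). Lyve1, a hyaluronan receptor of these cells, stood at 26.1, 2.34 and 5.6 RPKM against 0.208, 0.115 and 1.43 and was not called (2.51, adjusted p = 0.101). The summed level of this list was highest in GRP2/MP3 1, at 3715 RPKM, against 565 and 226 in GRP2/MP3 2 and 4.

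Of 12 tested pericyte genes, 4 were upregulated, and all of these were highest in GRP2/MP3 4. Higd1b, a mitochondrial protein of the HIG1 family found in pericytes (ENSMUSG00000020928, chr11:102835849-102838040), stood at 287, 87.3 and 463 RPKM in GRP2/MP3 and at 1.12, 6.93 and 1.78 in NSC (5.98, SE 0.93, adjusted p = 0.00723). Its paralogue Higd1a, which most cells use, stood at 147, 71.1 and 124 RPKM against 120, 116 and 86.8, a difference of 0.04 (SE 0.82, adjusted p = 0.995). Rgs5, a regulator of G protein signalling in pericytes, stood at 120, 155 and 6493 RPKM against 1.23, 2.85 and 102 (5.70, SE 0.79, adjusted p = 0.00507). Both libraries of batch 4 held more Rgs5 than the others of their population. Vtn, which encodes vitronectin, differed by 5.59 (adjusted p = 0.00507), and Kcnj8, a potassium channel of pericytes, by 4.22 (adjusted p = 0.0141). Pdgfrb, the receptor on which pericytes depend, stood at 16.1, 6.74 and 30.8 RPKM against 0.177, 1.3 and 1.67 and missed the threshold (3.06, SE 0.76, adjusted p = 0.0562). Tbx2 and Heyl, transcription factors that the study names for GRP2/MP3, differed by 1.91 and 1.86 (adjusted p = 0.0906 and 0.104).

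The requirement of 1 RPKM in 4 of 8 libraries kept out genes that were high in GRP2/MP3 1, 2 and 4 only. Atp13a5, a transporter of pericytes, stood at 13.9, 16.4 and 139 RPKM in GRP2/MP3 and at no more than 0.6 in NSC. Abcc9, the partner of Kcnj8 in its channel, stood at 4.23, 38.9 and 17.5 RPKM against at most 0.835, and Cryba4, a crystallin, at 223, 104 and 7.26 against at most 0.818. With a filter of 1 RPKM in 3 of the 6 libraries of batches 1, 2 and 4, chosen after seeing the data, all of these passed, at 4.80, 3.53 and 5.19 (adjusted p = 0.00895, 0.0305 and 0.0131).

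**Figure D3:**
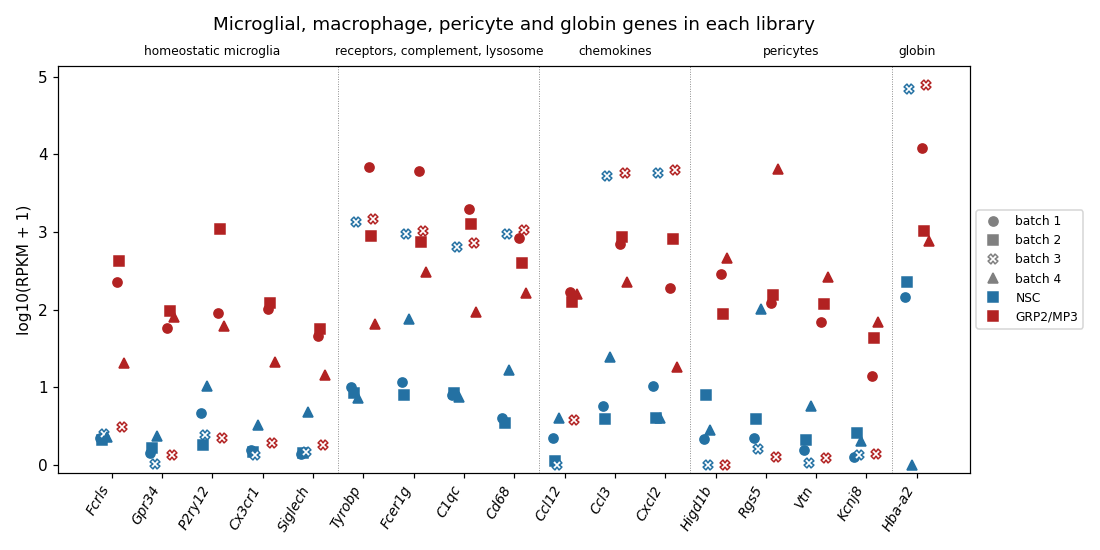
RPKM of 17 microglial, macrophage, chemokine, pericyte and globin genes in each library, as log10(RPKM + 1), NSC in blue and GRP2/MP3 in red, with a marker for each batch and batch 3 as open crosses. In batch 3 the NSC and GRP2/MP3 crosses lie together, near the top for Tyrobp, Ccl3 and Hba-a2 and near 0 for Gpr34, Cx3cr1, Higd1b and Rgs5.

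Red cell RNA moved with the same libraries. Of 5 tested erythroid genes, 4 globin genes were upregulated, and Hba-a2, an alpha globin, stood at 12157, 1025 and 753 RPKM in GRP2/MP3 and at 145, 225 and 0 in NSC (6.04, SE 1.25, adjusted p = 0.0259). The globins are near-identical copies, so their split between Hba-a1 and Hba-a2 is uncertain. Ighm, the heavy chain of immunoglobulin M, stood at 47.3, 25.6 and 34.9 RPKM against 0.706, 0.283 and 1.46 (4.35, adjusted p = 0.0108). Slpi, a protease inhibitor of mucosa and myeloid cells, stood at 939, 96.8 and 9.57 RPKM against 0.652, 0 and 1.3 (5.99, adjusted p = 0.0173). Blood and immune genes beyond microglia were therefore among the 100, and the part of blood or of cells other than progenitors was not tested.

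Lists of the lineages that progenitors enter gave no call in either fit. Over batches 1, 2 and 4, 0.620% of all genes tested were upregulated and 2.51% downregulated. For lists this small, 0 calls is near that share and does not show that their genes were unchanged. These were transit amplifying cells (6 genes tested), neuroblasts (12), oligodendrocyte precursors (12), myelinating oligodendrocytes (6), and replication and mitosis (25). Over batches 1, 2 and 4, all 12 neuroblast genes lay above 0, at a median difference of 1.34. So did 5 of 6 transit amplifying genes, 7 of 12 oligodendrocyte precursor genes and 4 of 6 myelinating oligodendrocyte genes. For replication and mitosis 23 of 25 genes lay above 0, at a median difference of 0.62. Of all 16123 genes tested, 7486 lay above 0, at a median of -0.08. In batch 3 all 12 neuroblast genes were lower in GRP2/MP3, at a median difference of -0.37. Of the 25 replication and mitosis genes, 17 were lower there and 8 higher (median -0.16), against 57.2% of all genes tested lower. Mki67, a protein of cycling cells, stood at 3.77, 7.16 and 11.4 RPKM in GRP2/MP3 against 0.436, 0.64 and 1.44 (2.13, SE 0.62, adjusted p = 0.0997). Dlx1, a factor of transit amplifying cells and neuroblasts, stood at 5.41, 97.1 and 32.4 RPKM against 9.92, 2.4 and 4.71 (2.21, adjusted p = 0.348). Olig2 and Dcx, markers of the oligodendrocyte and neuronal lineages, were highest in GRP2/MP3 2 and 4 and below NSC 1 in GRP2/MP3 1. Median differences of these lists lay above 0 in batch 2, and in batch 1 they lay below 0 except for neuroblasts (0.02). Smooth muscle, endothelium, fibroblasts and basement membrane gave no call either, and Cldn5, of endothelial junctions, stood at 53.7, 53.7 and 49.8 RPKM against 105, 71.7 and 14.6 (0.11, adjusted p = 0.987).

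Of the 51 genes that the study names for GRP2/MP3, 43 were tested, with 6 upregulated and 12 downregulated over batches 1, 2 and 4. The study chose them on these samples, so their direction is not independent evidence. Pbx4, a homeodomain factor outside the ciliary lists, stood at 115, 343 and 47.8 RPKM in NSC and 2.69, 3.63 and 4.28 in GRP2/MP3 (-4.80, adjusted p = 0.0123). Gm29291, a gene of unassigned function, stood at 23.8, 3.18 and 10.6 RPKM in GRP2/MP3 against 0, 0 and 1.4 (2.99, adjusted p = 0.0488). Igf2bp3, an RNA-binding protein, and Etv1, an ETS factor, differed by 2.56 and 1.84 and were not called (adjusted p = 0.0909 and 0.297).

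Batch 3 differed from the others in what its libraries shared. Among the 6292 genes with a mean of at least 10 RPKM in its pair, the ratio of GRP2/MP3 3 to NSC 3 had a median of 1.00 with quartiles of 0.867 and 1.11. In batches 1, 2 and 4 these quartiles were 0.21 and 1.93, 0.29 and 2.59, and 0.486 and 1.64. A ratio over 2 was found for 65 genes in batch 3, against 1591, 2127 and 1202 in the other batches, and a ratio under 0.5 for 390, against 2938, 2449 and 1646. Pearson's r between the populations across the 16123 genes was 0.605, 0.617, 0.923 and 0.782 in batches 1 to 4, as a description, since genes are not independent and all libraries share the same gene models.

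**Figure D4:**
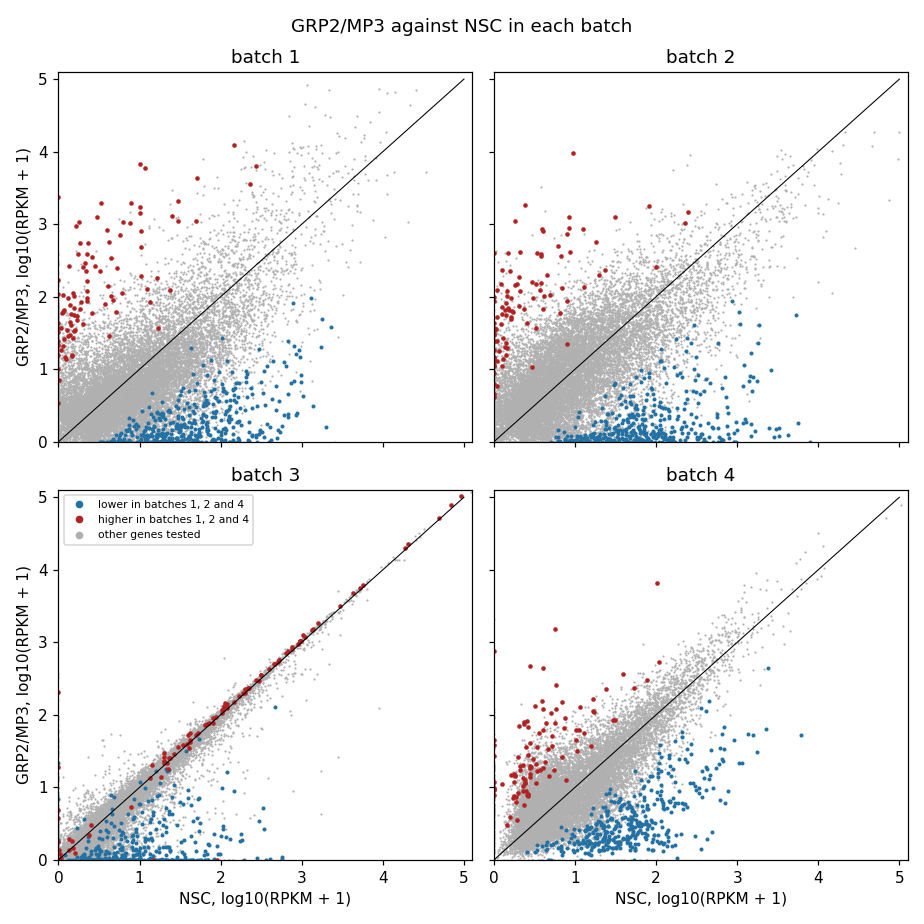
RPKM of the 16123 tested genes in GRP2/MP3 against NSC in each batch, both axes as log10(RPKM + 1), with the line of equality. The 100 higher genes (red) lie above the line in batches 1, 2 and 4 and along it in batch 3, while the 404 lower genes (blue) lie mostly below it in all 4.

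The ciliary difference was present in batch 3. Of the 404 genes downregulated in batches 1, 2 and 4, 392 were lower in GRP2/MP3 3 than in NSC 3, against 57.2% of all genes tested. The requirement of 1 RPKM in 4 of 8 libraries counts batch 3, so that genes absent from GRP2/MP3 entered only where NSC 3 held them. With the filter of 3 of the 6 libraries, which leaves batch 3 out, 437 genes were downregulated, of which 418 were lower in batch 3 (55.6% of all genes so filtered) and 349 fell below -1 (9.62%). The median difference of the 404 in batch 3 was -2.42, and 349 of them fell below -1, as did 10.5% of all genes. They lay at a median of 7.19 RPKM in NSC 3, against 46.0, 69.3 and 46.3 in NSC 1, 2 and 4. In GRP2/MP3 3 the median was 0.0687 RPKM, the lowest of the 4 GRP2/MP3 libraries. Foxj1 stood at 34.3 RPKM in NSC 3 and 0.199 in GRP2/MP3 3, Dynlrb2 at 564 and 0.109, and Ccdc153 at 279 and 0.0483. Of the 90 ciliary genes tested, 87 were lower in batch 3 and 72 by more than 1 on the log2 scale, and of the 96 that passed 3 of the 6 libraries these were 92 and 72.

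The 100 upregulated genes behaved otherwise in batch 3, where 80 were higher in GRP2/MP3 3 (39.1% of all genes tested) but at a median difference of 0.12. Past a difference of 1 there were 4, namely Ccl12, Gm24455, Gm6025 and Gm27152, against 1.72% of all genes. By level the 100 fell into 3 classes, whose sizes depend in part on the filter, since a gene near 0 in NSC and in batch 3 was not tested. At 10 RPKM or more in both libraries of batch 3 there were 76 genes, whose differences ran from -0.40 to 0.57. Tyrobp, for example, stood at 1464 RPKM in GRP2/MP3 3 and 1320 in NSC 3, C1qc at 713 and 630, Lyz2, the lysozyme of myeloid cells, at 22692 and 20269, and Hba-a2 at 77175 and 69258. Under 1 RPKM in both were 15 genes, among them the microglial genes Gpr34, Cx3cr1 and Siglech and the pericyte genes Higd1b, Rgs5, Vtn and Kcnj8. The remaining 9 were the 4 named above, Fcrls, P2ry12, Mgp, Gm23127 and Gm25125. With the filter of 3 of the 6 libraries, 81 of 118 upregulated genes held 10 RPKM or more in both libraries of batch 3 and 28 were under 1 in both.

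Myeloid RNA was therefore high in both populations of batch 3 while the genes most restricted to microglia were near 0 in both. P2ry12 stood at 1.22 RPKM in GRP2/MP3 3 and 1.4 in NSC 3, and Siglech, a lectin of microglia, at 0.817 and 0.465. Higd1b was listed at 0 in both. Genes of tissues outside the brain were high in the same pair: Scgb1a1, the secretoglobin of airway club cells, stood at 944 and 839 RPKM and at no more than 0.929 in the other 6 libraries. Chil3, a chitinase-like protein of alveolar macrophages, stood at 617 and 558 RPKM against at most 1.03 elsewhere. The summed level of 12 lung epithelium genes was 1195 and 1083 RPKM in batch 3 and between 3.17 and 41.5 in the other libraries, and that of 9 alveolar macrophage genes 1817 and 1590 against 17 to 139. Inflammatory genes followed, with Il1b at 4158 and 3850 RPKM and Cxcl2 at 6201 and 5707. Where this RNA came from was not tested.

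**Figure D5:**
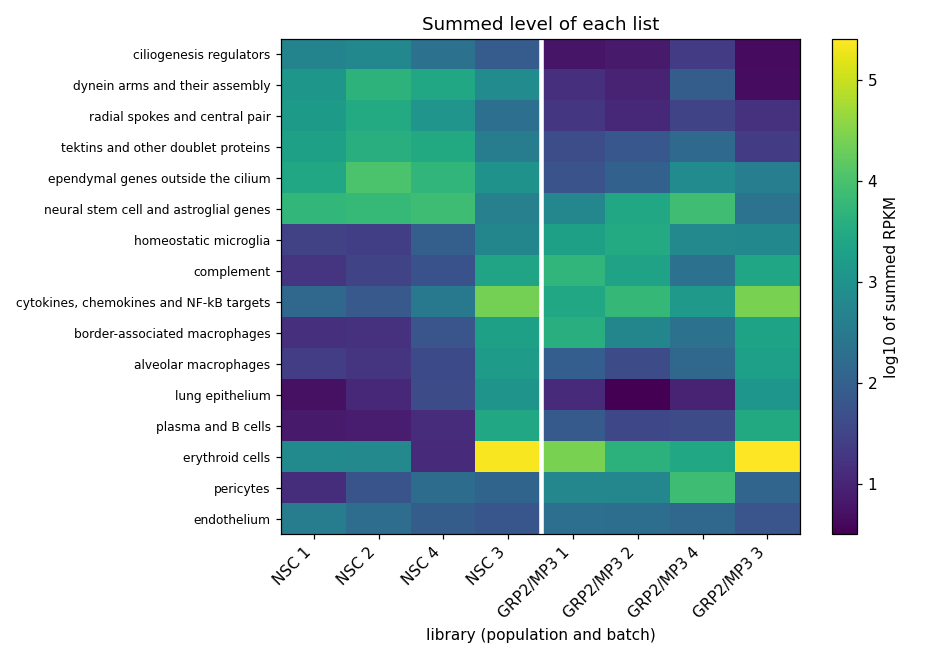
Summed RPKM of 16 lists in each library, coloured by log10, with NSC on the left, GRP2/MP3 on the right and batch 3 last in each. Ciliary lists are lower in every GRP2/MP3 library, while lung epithelium, alveolar macrophage, plasma and B cell and erythroid lists are highest in the libraries of batch 3, NSC 3 included.

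A test of batch 3 against batches 1, 2 and 4, on the within-batch differences by limma, called 0 genes in either direction (lowest adjusted p = 0.743), with 106 genes above and 129 below the other batches at an unadjusted p under 0.05. With 1 batch on one side, this test had few degrees of freedom. The difference of Rgs5 in batch 3 minus that in the other batches was -6.07. Higd1b and Vtn were at -5.98 and -5.38, and Gpr34 at -5.03. Calml4, a calmodulin-like protein, was at 5.01, from 50.9 RPKM in NSC 3 and 5.85 in GRP2/MP3 3. These genes had large differences in batches 1, 2 and 4, for which they were named. Those batches form the other side of this contrast, so its size for them follows in part from the choice. Of the 5 genes with the smallest unadjusted p in each direction, 1 was protein-coding, Gm5129 above the other batches, and the antisense gene 1700010K24Rik was also above. Below them were small nucleolar RNAs such as Gm25125, a microRNA gene and a processed pseudogene.

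Within batch 3, the 10 highest differences at a mean of 10 RPKM or more were 7 small nucleolar RNAs and 3 microRNA genes, each listed at 0 in NSC 3. The 10 lowest held 7 protein-coding genes, namely Meig1, Dynlrb2, Fam166a, Fam183b, Crygn, Ccdc153 and 1700012B09Rik. Meig1, known for its part in sperm flagella, stood at 567 RPKM in NSC 3 and 0.0395 in GRP2/MP3 3. Fam166a stood at 1725 and 3.3 RPKM. Of these 7, all but Fam166a were also downregulated over batches 1, 2 and 4.

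Across all 4 batches, 5 genes were upregulated, each higher in 4 of 4. Among them Ccl12 was the immune gene, at 2.75 RPKM in GRP2/MP3 3 and 0 in NSC 3 besides the values above (5.06, SE 0.81, adjusted p = 0.0178, and 0.0745 without the batch block). Insl3, a peptide hormone of Leydig cells (chr8:71689214-71690575), stood at 9.2, 7.45, 6.88 and 10 RPKM in GRP2/MP3 1 to 4 and at 1.22, 0.304, 0 and 1.13 in NSC (2.56, SE 0.43, adjusted p = 0.0216). Its levels were low but alike in all GRP2/MP3 libraries. The pseudogenes Gm27152 (9.1, 13.6, 3.88 and 11 RPKM) and Gm6025 (31.6, 5.24, 17.9 and 8.47 RPKM) were listed at 0 in every NSC library, so no fold is given. Gm24455, a small nucleolar RNA, stood at 43.1, 21.5, 205 and 26 RPKM against 0, 6.87, 0 and 0. Gm27152 (chr9:71948879-71948977), Gm6025 (chrX:53762815-53763015) and Gm24455 (chr9:15313802-15313932) are short genes. As RPKM is a level per length, few reads in so short a gene can give several RPKM. Read totals are not known, so the number of reads behind these values cannot be told. Small nucleolar RNAs usually lack the polyA tail on which the amplification relied. Without batch 1, 0 genes were upregulated, without batch 2 there were 5, and without batch 4 there were 2.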

How the data were processed

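RPKM values made by the authors were deposited for 45705 genes in 20 libraries, and the 8 of GRP2/MP3 and NSC were used. Per the labels, the authors' tools were FastQC 0.11.9 (read checks), cutadapt 3.4 (trimming), STAR 2.6.1 (alignment to GRCm38), Salmon 1.9.0 (quantification) and DESeq2 1.26.0 (testing). Read totals and gene lengths are not given in the sources used here, so no counting interval is given. A further 26 columns were empty. Values were taken as log2(RPKM + 1), which understates changes of low genes. R 4.3.3 with limma 3.58.1 (trended prior, Benjamini-Hochberg adjustment over all genes tested, threshold 0.05) fitted population with batch as a block. The labels give each library a batch, and the batch pairs the libraries. After population means were removed, the libraries of a pair correlated at r = 0.0264, 0.0145, 0.765 and 0.615 in batches 1 to 4, and in batches 1 and 2 the highest r with an NSC library of another batch was 0.406 and 0.621. The study describes 4 independent experiments, after 2 others were left out for low sample quality. Whether batches were separate litters is not stated in the labels, so p-values measure the spread between these samples. The steps were tested on simulated data. Positions are from GENCODE vM21. Figures used Python 3.11.15 and matplotlib 3.10.9.

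The libraries compared and the lists were chosen with earlier results of these data known. Genes named were those the study names for GRP2/MP3, the 10 largest rises and falls of each fit, the 5 largest differences of batch 3 in each direction by unadjusted p, up to 4 members of each list, the antigens and paralogues, and the 10 highest and lowest differences in batch 3. A few genes beside these, such as Ift52, Fabp7, Ctsd, Lyz2 and Mki67, were chosen after their values were seen. A gene list was used without a member that is not reported here. Of 29582 genes not tested, Atp13a5, Abcc9, Cryba4, Scgb1a1 and Chil3 are named. Alternatives were no block, a pseudocount of 0.1, other filters, other scalings, an untrended prior, all populations in the fit and each batch left out.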

Additional observations from a re-analysis of the deposited data

Results flagged for a closer look

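Of 214 groups of 4 libraries looked at, 2 populations for each named gene, 39 held a library set apart from the other 3 on the log2(RPKM + 1) scale by a gap of most of the group's range. Chance flags about 1 in 20 groups, and these genes are related. NSC 3 was the high library in 17 of them. In NSC 3 these were Tyrobp (1320 RPKM), Fcgr3 (448), Vav1 (48), Plcg2 (14), Csf1r (78.7), Lyl1 (25.7), C1qa (518), C1qb (888), C1qc (630), C3ar1 (110), Grn (760), Cxcl2 (5707), Slpi (4283), Lyz2 (20269), Ighm (762), Scgb1a1 (839) and Chil3 (558). GRP2/MP3 3 stood apart upward for Scgb1a1 (944 RPKM), Chil3 (617), Plcg2 (15.8) and Ift172 (10.4), and downward for Gpr34 (0.355), Ccl12 (2.75) and Cldn5 (0.335). NSC 3 was the low library for Fabp7 (228 RPKM) and Dynlrb1 (208).

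GRP2/MP3 4 was the high library for 6 ciliary genes: Dynlrb2 (29.8 RPKM), 1700012B09Rik (23.4), Enkur (21), Rsph9 (10.5), Ccdc151 (7.09) and Dnali1 (3.69). It was the low library for the myeloid genes Irf8 (6.08 RPKM) and Vav1 (6.29). NSC 4 was high for the microglial genes Siglech (3.78 RPKM) and Cx3cr1 (2.27) and for Gm29291 (1.4). The other flags were Ccl7 in GRP2/MP3 2 (29 RPKM, low) and Gm24455 in NSC 2 (6.87, high). What set these libraries apart was not tested.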

How the results depend on the processing

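The per-library RPKM printed here are the deposited values, the same under every setting, while the calls change. Median-of-ratios and quantile scaling change the values that enter the fits. The summed RPKM of a library ran from 955067 in GRP2/MP3 2 to 2182436 in GRP2/MP3 1. Over 4 batches, the 5 upregulated and 403 downregulated genes became 4 and 183 without the replicate block, 2 and 234 with a mean of at least 5 RPKM required, and 0 and 0 with no filter on low values (453 higher and 2155 lower at an unadjusted p under 0.05). Quantile normalization gave 7 and 261, and all 20 libraries in the fit with replicate block gave 130 and 951. Over batches 1, 2 and 4, the 100 upregulated and 404 downregulated genes became 63 and 365 without the replicate block, 57 and 292 with a pseudocount of 0.1, 57 and 312 with a prior without a trend, and 259 and 783 with all 15 libraries of these batches. They became 0 and 0 with no filter and with a mean of at least 5 RPKM, where the prior fell to 3.1 degrees of freedom from 9. Protein-coding genes alone, a setting chosen after seeing the data, gave 53 and 657 over 4 batches and 324 and 763 over batches 1, 2 and 4.

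With each batch left out in turn, the counts over 4 batches ran from 0 to 100 upregulated and from 73 to 404 downregulated genes, where 100 and 404 are the fit without batch 3. Those over batches 1, 2 and 4 ran from 0 to 107 and from 0 to 304, with both 0 without batch 4. Of 70 named genes called over batches 1, 2 and 4, the number that remained called was 47 without the replicate block, 44 with the pseudocount of 0.1, 58 and 65 under the median-of-ratios and quantile scalings, and 68 with all 15 libraries. The pairing bears on Rgs5 (adjusted p = 0.15 without the block), Hba-a2 (0.172), Ccl7 (0.151), Rarres2 (0.158) and Sox9 (0.11), and on Tyrobp (0.0526) and Pf4 (0.0556), which lost their calls without it, as did Mrc1 (0.0547), Cbr2 (0.0643), C3ar1 (0.0504), Ccl2 (0.0795), Cxcl2 (0.0951), Ctss (0.0911), Grn (0.0722), Slpi (0.0567), Id4 (0.0609), Hopx (0.0697), Ccdc151 (0.0587) and Ift81 (0.0553). Over 4 batches Ccl12 lost its call as well (adjusted p = 0.0745, 0.00362 to 0.293 over its alternatives). Among the named genes, a direction changed for Higd1a, Dynlrb1 and Cldn5, none of them called. Over 4 batches Higd1a was at 0.09 and 0.16 under the median-of-ratios and quantile scalings and between -0.26 and 0.14 with a batch left out, and Cldn5 at -0.08 with a pseudocount of 0.1 and between -0.54 and 0.34. Over batches 1, 2 and 4 Dynlrb1 was at 0.02 under median-of-ratios scaling and between -0.82 and 0.38 with a batch left out, Higd1a between -0.20 and 0.40, and Cldn5 between -0.68 and 0.65. Median-of-ratios and quantile scaling moved the median difference of all genes from -0.0752 to 0.0971 and 0.112 over these batches. The test of batch 3 against the others called 0 genes under each of its 6 alternatives. Read totals are not known, so the part of depth in low values cannot be told.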
